A study of Mus musculus with 11 samples.

Results

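The 7 subunit genes of AMP-activated protein kinase (AMPK) were Prkaa1, Prkaa2, Prkab1, Prkab2, Prkag1, Prkag2 and Prkag3. They were taken by Ensembl identifier from the 22608 genes of a heart count table, and all 7 were found. AMPK is an energy sensor built from a catalytic alpha, a scaffolding beta and a nucleotide-binding gamma subunit. When AMP and ADP rise against ATP they bind the gamma subunit, and the kinase LKB1 then keeps the alpha subunit phosphorylated and active. In heart muscle, AMPK raises glucose uptake and fatty acid oxidation and restrains energy-consuming synthesis. Each subunit has several forms encoded by separate genes, and the cardiac and skeletal muscle enzyme is known for its use of the products of Prkaa2 and Prkab2. Mutations of human PRKAG2 cause a glycogen storage cardiomyopathy, and Prkag3 is best known from fast skeletal muscle.

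The study sequenced total RNA from hearts (ventricle, per the labels) of 11 male mice on a C57BL/6J background, aged 8 to 16 weeks. CD mice carry the complete deletion of the Williams-Beuren syndrome interval on 1 copy of chromosome 5, and the WT mice were their littermates. Both genotypes received daily intraperitoneal injections for 10 days, of vehicle (VEH) or of JZL184 at 8 mg/kg. JZL184 blocks monoacylglycerol lipase and so slows the breakdown of an endocannabinoid. The groups were WT VEH with n = 2, WT JZL184 with n = 3, CD VEH with n = 3 and CD JZL184 with n = 3. The labels call the vehicle mice untreated in the treatment field, whereas the titles give vehicle. The deletion is present in every cell of a CD mouse, and the RNA came from tissue, not from sorted cells.

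The libraries held 69660232 to 92251443 estimated counts, and 3 counts corresponded to 0.0306 to 0.0435 CPM (counts scaled to the TMM library size), which covers counting error only. Between Gtf2i and Fkbp6, the ends of the deleted interval, 14 of 14 tested genes were lower in CD VEH than in WT VEH, with a median log2 fold-change of -1.01. They were also lower in CD JZL184 than in WT JZL184, 14 of 14 with a median of -0.91. The summed level of 7 cardiomyocyte markers was 41860 to 42880 CPM in WT VEH, 29450 to 39670 in WT JZL184, 35340 to 39090 in CD VEH and 41980 to 44130 in CD JZL184. Of 4 atrial markers, Sln, Myl7 and Myl4 reached at most 0.188, 0.521 and 1.70 CPM and Nppa lay between 49.2 and 220 CPM, with a list sum of 171 to 194 CPM in WT VEH, 111 to 221 in WT JZL184, 50.5 to 148 in CD VEH and 74.2 to 125 in CD JZL184, and the ventricular Myl2 was at 5866 CPM or more in every mouse. Mitochondrial transcripts took 39.4% to 41.2% of counts in WT VEH, 45.0% to 46.6% in WT JZL184, 43.5% to 44.7% in CD VEH and 36.4% to 40.2% in CD JZL184. CD VEH mouse A stood apart by its globin-led erythroid markers, at 18830 CPM against 1419 to 5512 CPM in the other mice, and leaving this mouse out changed none of the subunit calls given for CD VEH against WT VEH.

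None of the subunit genes lies in the deleted interval (chr5:134237834-135350044, GRCm38). Prkab1 is on the same chromosome, 18.2 Mb away (chr5:116013586-116024508), and so is Prkag2, 109.1 Mb away (chr5:24862744-25100642). Prkaa2 lies at chr4:105029874-105109890 and its paralogue Prkaa1 at chr15:5143861-5181899. Prkab2 lies at chr3:97658193-97673812, Prkag1 at chr15:98812797-98831521 and Prkag3 at chr1:74738922-74749221. The sequences upstream of the alpha and beta genes are shown because Prkaa2 and Prkab2 were both called for the genotype under vehicle and for JZL184 in either genotype, while Prkaa1 and Prkab1 were called in none of these 3 comparisons. They come from the RefSeq promoter table (GRCm38.p6), are written 5′ to 3′ on the strand of the gene and stop before the first annotated transcript start. Capitals mark the motifs searched, on either strand, which were the GC box GGGCGG, the CCAAT box, the E-box CACGTG, the nuclear receptor site AAGGTCA, the TATA box TATAAA and the cAMP response core TGACG.
Prkaa1, + strand, chr15:5143611-5143860: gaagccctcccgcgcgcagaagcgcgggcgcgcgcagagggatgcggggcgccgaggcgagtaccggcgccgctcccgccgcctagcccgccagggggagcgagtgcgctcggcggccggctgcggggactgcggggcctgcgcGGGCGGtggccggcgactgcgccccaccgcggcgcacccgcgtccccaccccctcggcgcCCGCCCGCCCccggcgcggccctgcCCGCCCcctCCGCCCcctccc
Prkaa2, − strand, chr4:105109899-105110148: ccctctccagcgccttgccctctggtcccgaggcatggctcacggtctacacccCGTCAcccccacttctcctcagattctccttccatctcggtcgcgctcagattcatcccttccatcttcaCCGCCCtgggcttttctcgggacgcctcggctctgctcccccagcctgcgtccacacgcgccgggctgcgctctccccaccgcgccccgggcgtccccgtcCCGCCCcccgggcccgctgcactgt
Prkab1, − strand, chr5:116024509-116024678: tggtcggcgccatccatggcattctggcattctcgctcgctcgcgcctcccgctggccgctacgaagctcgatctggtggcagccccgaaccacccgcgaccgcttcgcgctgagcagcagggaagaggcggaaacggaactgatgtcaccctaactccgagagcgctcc
Prkab2, + strand, chr3:97657962-97658192: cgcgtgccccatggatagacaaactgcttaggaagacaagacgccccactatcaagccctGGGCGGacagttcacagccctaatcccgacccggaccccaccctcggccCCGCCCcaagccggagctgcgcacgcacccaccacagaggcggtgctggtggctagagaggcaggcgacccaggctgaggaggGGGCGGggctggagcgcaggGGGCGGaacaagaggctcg
In windows of 300 bases around the start, GGGCGG was found 5 times for Prkaa1, 2 times for Prkaa2, 5 times for Prkab2 (4 of them in the stretch shown) and 0 times for Prkab1. Of all 32851 promoters, 35.7% hold it. TGACG was present once, in Prkaa2, and is held by 20.8% of promoters. The CCAAT box (37.4% of promoters), the E-box (7.15%), the nuclear receptor site (4.72%) and the TATA box (13.6%) were found 0 times in all 4 windows. All 4 windows were rich in G and C, at 82.0% for Prkaa1, 72.7% for Prkaa2, 65.3% for Prkab1 and 68.0% for Prkab2, against a median of 52.7%. None of the 6 motifs was present in both Prkaa2 and Prkab2 and missing from both counterparts.

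In WT VEH hearts the catalytic transcript was mostly Prkaa2. Per kilobase of transcript, Prkaa2 made up 86.2% ± 0.84 (SD, n = 2) of the summed alpha level and Prkaa1 13.8%. The beta level was split more evenly, with Prkab2 at 56.9% ± 1.29 and Prkab1 at 43.1%. Prkag1 made up 89.6% of the gamma level, Prkag2 9.04% and Prkag3 1.33%. The order within each class held with the longest transcript in place of the median coding transcript, at 86.2% for Prkaa2, 57.3% for Prkab2 and 89.3% for Prkag1. Over all 11 mice the level per kilobase was 102 for Prkag1, 13.7 for Prkaa2, 11.6 for Prkab1, 10.5 for Prkab2, 9.93 for Prkag2, 2.87 for Prkaa1 and 1.19 for Prkag3, in CPM per kilobase. With the longest transcript Prkag1 was at 50.2 and Prkag2 at 4.61, and the order of the 7 genes was kept. Prkag1 was above the other members in every mouse, and Prkaa1 and Prkag3 were below them. Prkaa2, Prkab1, Prkab2 and Prkag2 had ranges over all 11 mice that overlapped, and their order depended on the group. In WT VEH they were apart, with Prkaa2 at 16.1 and 18.1, Prkab2 at 13.02 and 13.37, Prkag2 at 11.2 and 11.3 and Prkab1 at 9.75 and 10.2. In WT JZL184 their ranges overlapped. In CD VEH Prkab1 (mean 12.4) and Prkaa2 (11.1) overlapped, and so did Prkag2 (8.96) and Prkab2 (7.89). In CD JZL184 Prkaa2 (16.9) was apart from the others. With the longest transcript Prkag2 was below the other 3 in every mouse, at 5.35 or less. Prkag1 overlaps the antisense gene B130046B21Rik, with which it shares 35% of its 31-base words, and Prkag2 shares 12.7% with antisense partners. Whether the libraries kept strand is not given in the sources used here, so those reads cannot be told apart.

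**Figure D1:**
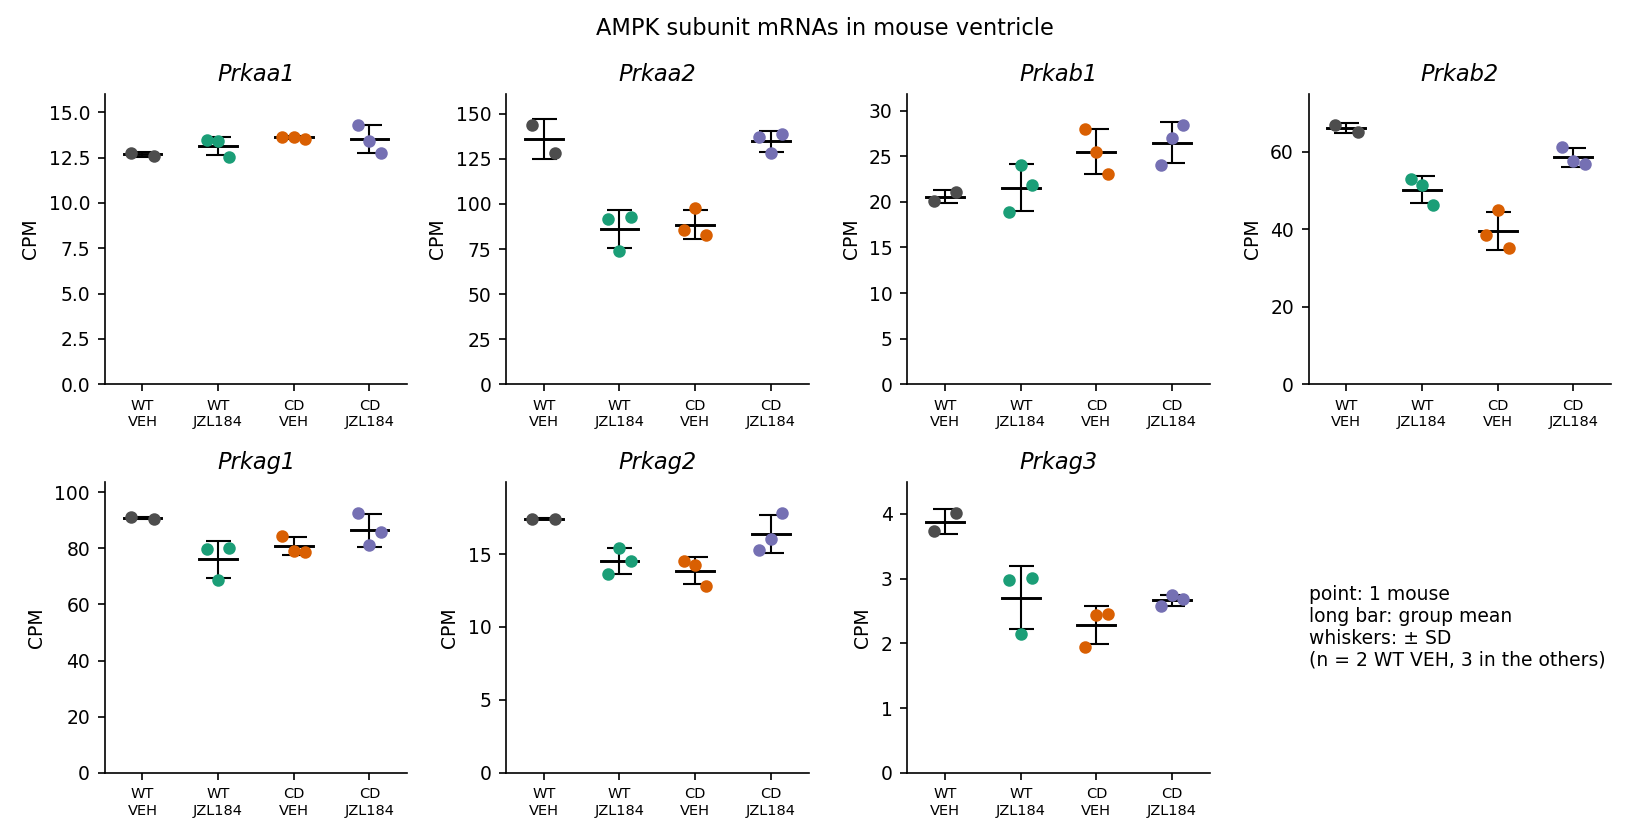
Level of each subunit mRNA in CPM (vertical axes, starting at 0) by group. Points are single mice, and bars and whiskers are the group mean ± SD. Prkaa2 lay between 74.0 and 97.6 CPM in WT JZL184 and CD VEH and between 128 and 144 CPM in WT VEH and CD JZL184, whereas Prkaa1 lay between 12.6 and 14.3 CPM in all 11 mice.

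The comparison of CD VEH with WT VEH shows the genotype under vehicle. Prkaa2, Prkab2, Prkag2 and Prkag3 were lower in CD VEH hearts, and Prkaa1, Prkab1 and Prkag1 did not pass the test. Of all tested genes, 30.4% passed in this comparison, 15.4% in the lower and 15% in the higher direction, against 4 of 7 subunits, all lower. Prkaa2, the main catalytic subunit mRNA, was at 144 and 128 CPM in the WT VEH mice C and D. It was at 85.3, 97.6 and 82.5 CPM in the CD VEH mice A, C and E. The groups were apart, and the log2 fold-change was -0.62 ± 0.10 (SE; edgeR quasi-likelihood test, Benjamini-Hochberg adjusted p = 0.0035). Prkab2 was at 66.9 and 65.2 CPM in WT VEH and at 38.6, 44.9 and 35.1 CPM in CD VEH. Every CD VEH heart was below both WT VEH hearts, and the log2 fold-change was -0.74 ± 0.09 (edgeR adjusted p = 0.00162).

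Of the 3 gamma genes, Prkag2 and Prkag3 were lower. Prkag2 was at 17.4 and 17.4 CPM in WT VEH and at 14.6, 14.2 and 12.8 CPM in CD VEH, a log2 fold-change of -0.33 ± 0.08 (edgeR adjusted p = 0.0148). Prkag3 was at 3.74 and 4.01 CPM in WT VEH and at 1.94, 2.44 and 2.45 CPM in CD VEH, a log2 fold-change of -0.77 ± 0.16 (edgeR adjusted p = 0.00636). Prkag3 was the least abundant member. Of 7 skeletal muscle fibre markers, Myh1, Myh2, Myh4 and Pvalb reached at most 0.0985 CPM, Tnnc2 at most 0.164 and Tnnt3 at most 0.4345 CPM, while Mybpc2 lay between 7.05 and 17.1 CPM. The list sum, nearly all Mybpc2, was 15.01 to 17.7 CPM in WT VEH, 7.60 to 13.9 in WT JZL184, 8.36 to 13.02 in CD VEH and 14.8 to 16.6 in CD JZL184, and its part in the Prkag3 result was not tested. Prkag1, the main gamma mRNA, had a log2 fold-change of -0.17 (95% confidence interval -0.35 to 0.01; edgeR adjusted p = 0.129), and passed with an offset for transcript length (-0.29, adjusted p = 0.0376).

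The other forms of the alpha and beta subunits had values in the opposite direction. Prkab1 was at 20.1 and 21.04 CPM in WT VEH and at 27.9, 25.5 and 23.1 CPM in CD VEH. The log2 fold-change was 0.31 (95% confidence interval 0.07 to 0.55), which did not pass in edgeR (adjusted p = 0.0517) and passed in DESeq2 (adjusted p = 0.0324). In edgeR it passed with upper quartile factors (adjusted p = 0.0358) and with only the compared groups (0.0283). Of 14 alternatives, 10 left Prkab1 uncalled. Prkaa1 had a log2 fold-change of 0.10 (-0.04 to 0.25; edgeR adjusted p = 0.254). All 7 members had groups that did not overlap, as did 64% of all tested genes, 31.5% in the lower and 32.5% in the higher direction. Only Prkab2 kept its call whichever mouse was left out. Without WT VEH mouse C the adjusted p was 0.0506 for Prkaa2, 0.0892 for Prkag2 and 0.0514 for Prkag3, and without WT VEH mouse D it was 0.075 for Prkag2 and 0.0507 for Prkag3. Without CD VEH mouse E, Prkag2 had an adjusted p of 0.0502 and Prkab1 of 0.0455.

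The comparison of CD JZL184 with CD VEH shows the drug in mice with the deletion. Prkaa2, Prkab2 and Prkag2 were higher in CD JZL184, and no member was lower. The background was 33.8% of tested genes, 16.8% in the higher direction. Prkaa2 was at 137, 128 and 139 CPM in the CD JZL184 mice A, C and E, each above the highest CD VEH mouse, and the log2 fold-change was 0.61 ± 0.09 (edgeR adjusted p = 0.00235). Prkab2 was at 61.2, 57.4 and 56.9 CPM, again each above every CD VEH mouse, and the log2 fold-change was 0.57 ± 0.09 (edgeR adjusted p = 0.00235). Both calls held without any single mouse. Prkag2 was at 15.3, 16.01 and 17.8 CPM, a log2 fold-change of 0.24 ± 0.08 (edgeR adjusted p = 0.0304). That call was lost without CD VEH mouse E (adjusted p = 0.111) and without CD JZL184 mouse C (0.0528) or E (0.133), and with upper quartile factors (0.0528).

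The other 4 members did not pass. Prkag3 was at 2.58, 2.74 and 2.68 CPM in CD JZL184, a log2 fold-change of 0.23 (95% confidence interval -0.09 to 0.54; edgeR adjusted p = 0.235). Prkag1 was at 92.6, 81.1 and 85.7 CPM, a log2 fold-change of 0.10 (-0.06 to 0.26; adjusted p = 0.31). Prkab1 was at 24.1, 27.0 and 28.5 CPM, which overlapped the CD VEH mice, and its log2 fold-change was 0.06 (-0.16 to 0.27; adjusted p = 0.678). Prkaa1 gave -0.01 (-0.14 to 0.12; adjusted p = 0.89), the tightest interval of the 7. The groups did not overlap for 4 of 7 members, and for 54.6% of tested genes.

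The same drug in WT mice gave values in the other direction. In WT JZL184 against WT VEH, 5 of 7 members were lower, Prkaa2, Prkab2, Prkag1, Prkag2 and Prkag3, and none was higher, with a background of 29.4% of tested genes, 14% in the lower direction. Prkaa2 was at 91.5, 74.0 and 92.5 CPM in the WT JZL184 mice A, B and D, below both WT VEH mice, with a log2 fold-change of -0.66 ± 0.10 (edgeR adjusted p = 0.00253). Prkab2 was at 53.0, 51.4 and 46.3 CPM, a log2 fold-change of -0.40 ± 0.09 (edgeR adjusted p = 0.0111). The WT JZL184 hearts therefore lay between those of WT VEH and CD VEH for Prkab2, and for Prkaa2 they overlapped those of CD VEH, with WT JZL184 mouse B the lowest of all. Prkag1 was at 79.9, 68.6 and 80.0 CPM (log2 fold-change -0.25 ± 0.08, edgeR adjusted p = 0.0351) and Prkag2 at 13.6, 15.4 and 14.5 CPM (-0.26 ± 0.08, 0.0358). Prkag3 was at 2.97, 2.14 and 3.002 CPM (-0.52 ± 0.16, adjusted p = 0.0289).

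In this comparison Prkaa2 was the member whose call held without any single mouse. Without WT VEH mouse C or D, Prkaa2 alone was called, and the adjusted p of Prkab2 was 0.0841 and 0.0569. Without WT JZL184 mouse B, Prkag1 (0.0963) and Prkag3 (0.0748) were lost, and without mouse A or D, Prkag2 (0.0678 and 0.0673). Prkaa1, at 13.5, 13.4 and 12.6 CPM, had a log2 fold-change of 0.05 (95% confidence interval -0.10 to 0.20; edgeR adjusted p = 0.586). Prkab1, at 18.9, 24.0 and 21.8 CPM, had one of 0.07 (-0.17 to 0.31; adjusted p = 0.659). The groups did not overlap for 5 of 7 members, against 54.7% of tested genes. This comparison and that of CD VEH share the 2 WT VEH mice, so their values are set side by side and are not independent.

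**Figure D2:**
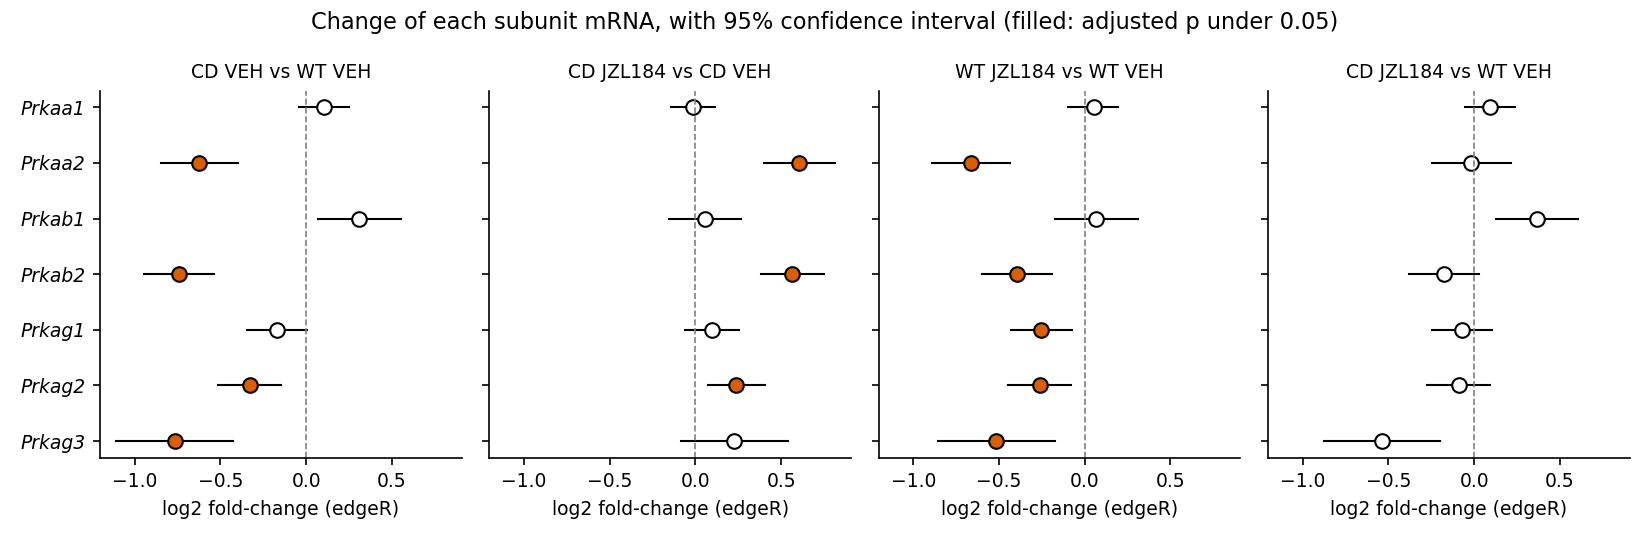
Log2 fold-change (horizontal axis) of each subunit mRNA in 4 comparisons, with lines for the 95% confidence interval and filled points for an edgeR adjusted p under 0.05. Prkaa2 and Prkab2 are below 0 for CD VEH and for WT JZL184 against WT VEH and above 0 for CD JZL184 against CD VEH, and no point is filled for CD JZL184 against WT VEH.

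The difference between the drug effects in both genotypes was tested directly, as the effect in CD mice minus the effect in WT mice. It passed for 5 of 7 members, all positive, with a background of 51.5% of tested genes, 25.3% positive and 26.2% negative. The difference was 1.27 ± 0.14 on the log2 scale for Prkaa2 (edgeR adjusted p = 0.000132) and 0.96 ± 0.13 for Prkab2 (adjusted p = 0.000227). It was 0.74 ± 0.21 for Prkag3 (0.0121), 0.50 ± 0.11 for Prkag2 (0.00345) and 0.35 ± 0.11 for Prkag1 (0.0179). Prkaa2, Prkab2 and Prkag2 kept the call without any single mouse. Prkag1 lost it without WT VEH mouse C (adjusted p = 0.0575) or D (0.051), and Prkag3 without WT VEH mouse D (0.051). Prkaa1 (-0.06, 95% confidence interval -0.26 to 0.13) and Prkab1 (-0.01, -0.33 to 0.31) did not pass.

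Treated CD hearts were also set against both WT groups. Against WT VEH, 0 of 7 members passed in edgeR, with a background of 0.186% (21 genes), and 0 passed in DESeq2. At an unadjusted p under 0.05 there were 2, Prkab1 (log2 fold-change 0.37, 95% confidence interval 0.13 to 0.61) and Prkag3 (-0.54, -0.88 to -0.20). Prkaa2 had a log2 fold-change of -0.02 with an interval of -0.25 to 0.21. For Prkab2 it was -0.18 (-0.38 to 0.03), and all 3 CD JZL184 hearts were below both WT VEH hearts. Groups were apart for 4 members, against 36.6% of tested genes. Against WT JZL184, Prkaa2 was higher (log2 fold-change 0.65 ± 0.10, edgeR adjusted p = 0.00098), and so was Prkab1 (0.30 ± 0.10, adjusted p = 0.0316), with a background of 38.3% of tested genes. The Prkab1 call was lost without WT JZL184 mouse A (adjusted p = 0.0886) or D (0.0587) and without CD JZL184 mouse C (0.0754) or E (0.116). Prkab2 did not pass (0.22, 0.04 to 0.41; adjusted p = 0.0577) and passed in DESeq2 (0.044). The groups did not overlap for 4 of 7 members, against 47.9% of tested genes.

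Prkab1 had similar genotype values under vehicle and under JZL184 with TMM scaling, 0.31 and 0.30, but not with the scaling to cardiomyocyte markers described later, 0.51 and -0.05. Averaged over both treatments, a comparison added after these values were seen, its log2 fold-change in CD against WT was 0.30 ± 0.07 (edgeR adjusted p = 0.0751; DESeq2 adjusted p = 0.00851). Prkab2 had -0.26 ± 0.06 (edgeR adjusted p = 0.0758; DESeq2 0.00837) and Prkag3 -0.40 ± 0.11 (0.101; 0.0227). These 2 averages join unlike values. Under vehicle and under JZL184 the genotype value was -0.74 and 0.22 for Prkab2, and -0.77 and -0.02 for Prkag3. In edgeR 0 of 7 members and 1.09% of tested genes passed (0.671% lower, 0.415% higher), and in DESeq2 3 members and 3.9% of tested genes did. In edgeR, Prkab1 passed without WT JZL184 mouse B (adjusted p = 0.0274), Prkag3 also without that mouse (0.0207) and Prkab2 without CD VEH mouse C (0.024).

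The ratio of forms within a single heart does not depend on how libraries are scaled to each other. For Prkaa2 over Prkaa1, the log2 ratio of counts was 3.49 and 3.35 in WT VEH, 2.76, 2.47 and 2.88 in WT JZL184, 2.64, 2.84 and 2.61 in CD VEH, and 3.26, 3.26 and 3.44 in CD JZL184. The 3 WT JZL184 and 3 CD VEH hearts were all below the other 5. Group means corresponded to 10.7, 6.51, 6.48 and 9.98 Prkaa2 counts per Prkaa1 count in that order of groups. The log2 ratio differed by -0.73 for CD VEH and by -0.72 for WT JZL184 against WT VEH, and by 0.62 for CD JZL184 against CD VEH, each more than the pooled within-group SD of 0.15. CD JZL184 and WT VEH differed by -0.10, which is within that spread. Per kilobase, the Prkaa2 share of the alpha level was 79.1% ± 2.51 in WT JZL184, 79.0% ± 1.41 in CD VEH and 85.3% ± 0.89 in CD JZL184.

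The beta ratio followed another order. Prkab2 over Prkab1 had a log2 ratio of 1.74 and 1.63 in WT VEH, 1.49, 1.10 and 1.08 in WT JZL184, 0.47, 0.82 and 0.61 in CD VEH, and 1.35, 1.09 and 0.999 in CD JZL184. Each CD VEH heart was below each heart of the other groups, and each WT VEH heart above them. The mean of CD JZL184 (1.15) was 0.54 below that of WT VEH (1.69), against a pooled within-group SD of 0.19, and 0.52 above that of CD VEH (0.63). Per kilobase, Prkab2 was the larger beta form in WT VEH (56.9%) and the smaller in CD VEH (38.9% ± 2.93), with WT JZL184 (49.0% ± 4.02) and CD JZL184 (47.6% ± 3.13) between them. The gamma ratio, Prkag2 over Prkag1, had group means of -2.38, -2.39, -2.54 and -2.40. CD VEH differed from WT VEH by -0.16 with groups that did not overlap, slightly more than the pooled within-group SD of 0.15, and the differences of both JZL184 groups from WT VEH were smaller than it. Leaving out any mouse moved none of these differences by more than the pooled within-group SD.

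**Figure D3:**
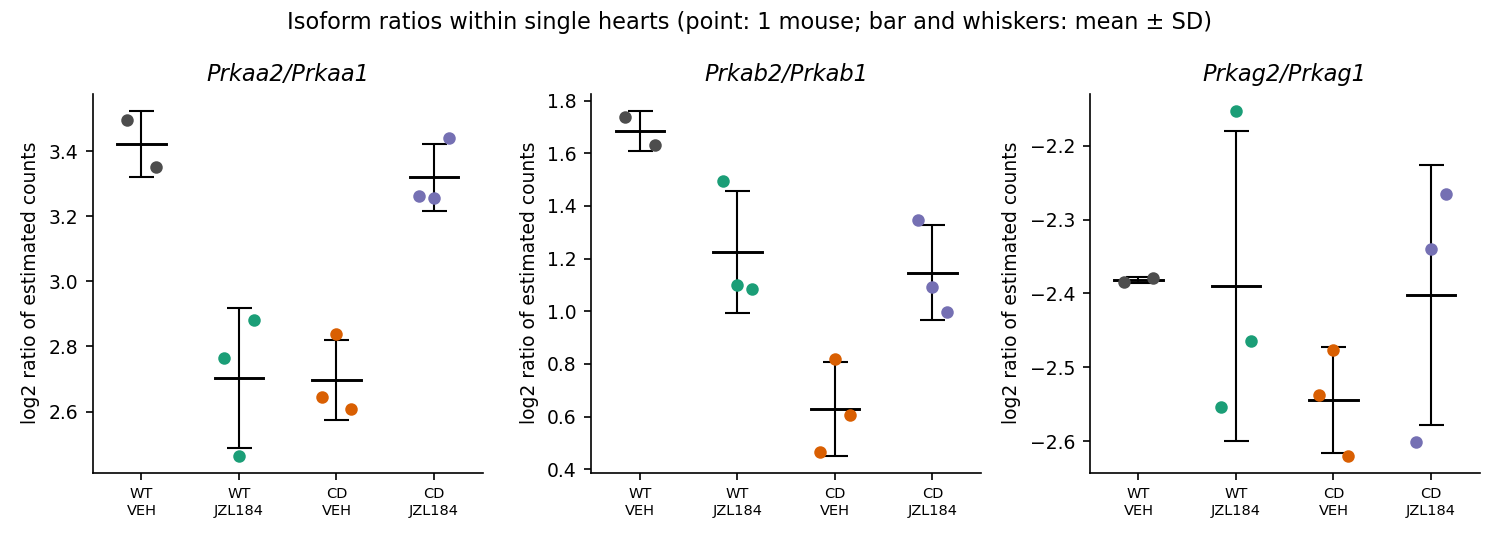
Log2 ratio of estimated counts (vertical axes) of the subunit forms in each heart, by group; points are mice, and bars and whiskers are the mean ± SD. The alpha ratio of WT JZL184 and CD VEH hearts was at most 2.88 and that of the other hearts at least 3.26, and the beta ratio was lowest in CD VEH (0.47 to 0.82).

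Cell type markers moved with the same groups. In CD VEH against WT VEH, 3 of 7 cardiomyocyte markers (Myh6, Actn2 and Atp2a2) were lower and 0 higher, with a median log2 fold-change of -0.37. The cardiomyocyte markers did not all move together. Ryr2 (-0.44) and Tnnt2 (-0.10) lay below 0 without a call, and Tnni3 (0.24) and Myl2 (0.245) lay above 0 without a call. Endothelial markers were higher for 4 of 5 and macrophage markers for 5 of 5, with medians of 0.47 and 0.63. In WT JZL184 against WT VEH, 4 of 7 cardiomyocyte markers were lower (median -0.47), and 5 of 5 endothelial and 5 of 5 macrophage markers were higher. Tnni3 (0.09) and Myl2 (0.155) were again above 0 without a call. In CD JZL184 against CD VEH, 4 of 7 cardiomyocyte markers were higher and 1, Myl2 (-0.35), was lower (median of the list 0.42). Endothelial markers were lower for 4 of 5 and macrophage markers for 5 of 5. Smooth muscle markers were higher for 2 of 3 in CD VEH (median 0.70) and in WT JZL184 (1.15) against WT VEH, and lower for 2 of 3 in CD JZL184 against CD VEH (-0.65). Fibroblast markers were higher for 1 of 5 and 2 of 5 and lower for 1 of 5 in the same comparisons. All 5 erythroid markers were lower in CD JZL184 against CD VEH (median -2.17), and 0 of 5 passed for CD VEH or WT JZL184 against WT VEH. All 5 also passed in the difference between the drug effects (median -2.94). Within CD VEH their sum was 18830 CPM in mouse A against 2885 and 2032 CPM in mice C and E. Of the adipocyte list only Fabp4 was above 0.356 CPM, and Fabp4 is also made by capillary endothelium. In these bulk samples, fewer cells of a type and less RNA per cell cannot be told apart. The part of these marker levels in the subunit calls was not tested, other than by the scaling that follows.

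A scaling added after seeing the data set the mean log2 level of the 7 cardiomyocyte markers equal in all mice. It shifted the median of all tested genes by 0.20 in CD VEH against WT VEH, by -0.22 in CD JZL184 against CD VEH and by 0.31 in WT JZL184 against WT VEH, so changes are relative to those markers. Among all called genes the share that was higher went from 49.2% to 86.4%, from 49.7% to 5.15% and from 52.5% to 98.3% in these comparisons. Prkaa2 kept its call in all 3 comparisons, with log2 fold-changes of -0.43 (edgeR adjusted p = 0.0238), 0.39 (0.00927) and -0.37 (0.0127). Prkab2 kept it for both comparisons of CD mice, with -0.55 (0.0255) and 0.35 (0.0356), and lost it in WT JZL184 against WT VEH, with -0.08 (0.602). The drug-effect difference also kept its call for Prkaa2 (0.76, adjusted p = 0.000492) and Prkab2 (0.44, 0.0396). Prkag3 kept only the call of CD VEH against WT VEH, and Prkag2 kept none, with -0.13 (0.53) and 0.02 (0.923) in the CD mice. Prkag1 turned from -0.17 to 0.03 in CD VEH against WT VEH, from 0.10 to -0.12 in CD JZL184 against CD VEH and from -0.25 to 0.05 in WT JZL184 against WT VEH.

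**Figure D4:**
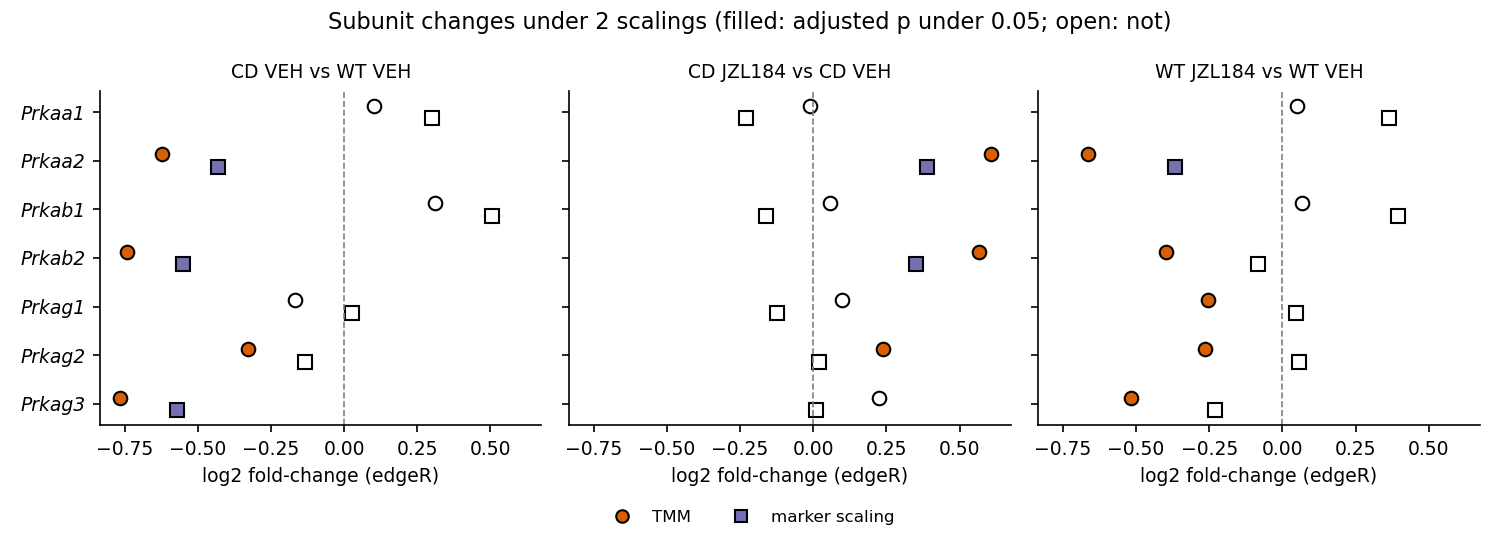
Log2 fold-change (horizontal axis) of each subunit mRNA with library scaling by TMM (circles) and with scaling to 7 cardiomyocyte markers (squares); filled symbols have an edgeR adjusted p under 0.05. Prkaa2 stayed filled in the 3 comparisons under both scalings, at -0.43, 0.39 and -0.37 with marker scaling.

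Genes that act around AMPK were read from 5 lists holding 66 genes, of which 62 were tested. Camkk1, Brsk1, Brsk2 and Ampd1 were too low to test, at 1.91 CPM or less in every mouse. In CD VEH against WT VEH, 27 of 62 passed, 20 lower and 7 higher (43.5%, against 30.4% of all tested genes), and the median log2 fold-change was -0.12 against 0.01 for all tested genes. In CD JZL184 against CD VEH, 24 passed, 21 higher and 3 lower (38.7%, against 33.8%), with a median of 0.12. The 3 lower genes, named after their values were seen, were Tbc1d1, Ampd2 and Nos3, the last being the nitric oxide synthase of endothelium. In WT JZL184 against WT VEH, 18 were lower and 3 higher (33.9%, against 29.4%), and in CD JZL184 against WT VEH 0 of 62 passed, in DESeq2 as well. The count for CD VEH against WT VEH was 2 without WT VEH mouse C (3.23%, against 3.4% of all tested genes), 9 without WT VEH mouse D (14.5%, against 10.7%) and 12 without CD VEH mouse A (19.4%, against 17%) or E (19.4%, against 17.5%). That for WT JZL184 against WT VEH was 1 without WT VEH mouse C (1.61%, against 4.93%) and 5 without mouse D (8.06%, against 9.09%).

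Metabolic substrates of AMPK had the highest share of calls of the 5 lists, with 7 of 10 in CD VEH against WT VEH (5 lower, 2 higher; background 30.4%) and 7 of 10 in CD JZL184 against CD VEH (5 higher, 2 lower; background 33.8%). The first count was 3 without CD VEH mouse E and 4 without CD VEH mouse A, where 17.5% and 17.0% of all tested genes passed. It was also lower without either WT VEH mouse. The second count was 3 without CD VEH mouse A (18.5% of all tested genes), CD VEH mouse E (18.0%) or CD JZL184 mouse A (21.6%). Without CD JZL184 mouse E it was 4 (19.0%). Acacb, the acetyl-CoA carboxylase whose product restrains fatty acid entry into mitochondria, was at 251 and 257 CPM in WT VEH, 169, 178 and 196 in WT JZL184, 170, 200 and 166 in CD VEH, and 262, 245 and 252 in CD JZL184. Like Prkaa2 it was lower in WT JZL184 and CD VEH than in the other groups, with log2 fold-changes of -0.51 ± 0.09 (edgeR adjusted p = 0.00399) for the genotype and 0.50 ± 0.08 (0.00245) for the drug in CD mice. Gys1, muscle glycogen synthase, gave -0.46 ± 0.12 (0.014) and 0.55 ± 0.11 (0.00387). Pfkfb2, the cardiac enzyme of fructose-2,6-bisphosphate synthesis, gave -0.73 ± 0.18 (0.0129) and 0.48 ± 0.16 (0.0391). Tbc1d4, a brake on glucose transporter traffic, gave -0.30 ± 0.08 (0.0176) and 0.43 ± 0.07 (0.00255).

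Among growth and transcription substrates, 5 of 14 were lower and 1 higher in CD VEH, and 5 were higher and 0 lower with JZL184 in CD mice, 42.9% and 35.7% against 30.4% and 33.8% of all tested genes. The genotype count was 3 without CD VEH mouse A or E, where 17.0% and 17.5% of all tested genes passed. It was also lower without either WT VEH mouse. Foxo3, a transcription factor of atrophy and stress genes, had log2 fold-changes of -0.45 ± 0.09 (edgeR adjusted p = 0.00617) and 0.48 ± 0.08 (0.0027). Rptor, the mTORC1 subunit phosphorylated by AMPK, had -0.31 ± 0.08 (0.013) and 0.36 ± 0.07 (0.0038). Ulk1, the autophagy kinase, had -0.26 ± 0.08 (0.0321) and 0.32 ± 0.07 (0.00699), and Hdac4, a repressor of MEF2 targets, had -0.42 ± 0.10 (0.0124) and 0.42 ± 0.09 (0.00722). Of the AMPK-related kinases, 3 of 10 were lower and 1 higher in CD VEH, and 4 were higher with JZL184 in CD mice, 40% in both, against 30.4% and 33.8%. The genotype count was 2 without CD VEH mouse A, where 17.0% of all tested genes passed. It was also lower without either WT VEH mouse. Sik3 had -0.34 ± 0.06 (0.0047) and 0.37 ± 0.06 (0.00235), and Sik2 had -0.44 ± 0.10 (0.00836) and 0.38 ± 0.09 (0.00814). Mark2 and Mark3, kinases of microtubule-binding proteins, passed with JZL184 in CD mice and not for the genotype, at 0.30 ± 0.07 (0.00715) and 0.20 ± 0.05 (0.014).

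Of 16 tested upstream kinases and binding proteins, 3 were lower and 2 higher in CD VEH, and 3 were higher with JZL184 in CD mice, 31.2% and 18.8% against 30.4% and 33.8% of all tested genes, so the list was at or below the background. The genotype count was 1 without CD VEH mouse A or E, where 17.0% and 17.5% of all tested genes passed. It was also lower without either WT VEH mouse. The drug count was 1 without CD VEH mouse E (18.0% of all tested genes) or CD JZL184 mouse A (21.6%). Fnip2 and Fnip1 encode folliculin partners that bind AMPK. Fnip2 was at 32.8 and 26.4 CPM in WT VEH, 14.0, 12.7 and 11.9 in CD VEH, and 20.2, 18.6 and 40.6 in CD JZL184. CD JZL184 mouse E was far above the other 2 mice of its group. The log2 fold-changes were -1.20 ± 0.27 (edgeR adjusted p = 0.00868) and 1.04 ± 0.25 (0.00905), and without that mouse the second was 0.59. Fnip1 gave -0.42 ± 0.12 (0.0255) and 0.41 ± 0.11 (0.0156), Sesn3, a stress-induced sestrin, -0.16 ± 0.14 (0.392) and 0.39 ± 0.12 (0.0317), and Cab39l, a partner of LKB1, 0.22 ± 0.07 (0.0322) and -0.13 ± 0.06 (0.107).

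Enzymes of adenylate and phosphocreatine turnover set the nucleotides that AMPK senses. In CD VEH, 4 of 12 were lower and 1 higher, and with JZL184 in CD mice 4 were higher and 1 lower, 41.7% in both, against 30.4% and 33.8%. The genotype count was 2 without CD VEH mouse A or E, where 17.0% and 17.5% of all tested genes passed. It was also lower without either WT VEH mouse. The drug count was 3 without CD VEH mouse A (18.5% of all tested genes) or E (18.0%). The mitochondrial adenylate kinases Ak3 and Ak4 had log2 fold-changes of -0.31 ± 0.06 (edgeR adjusted p = 0.00526) and -0.49 ± 0.10 (0.00529) for the genotype, and 0.19 ± 0.05 (0.0215) and 0.39 ± 0.09 (0.00711) for the drug in CD mice. Nt5c1a, the cytosolic nucleotidase that removes AMP, had -0.61 ± 0.16 (0.0179) and 0.68 ± 0.15 (0.00667). Ampd3, an AMP deaminase, had -0.19 ± 0.07 (0.0495) and 0.30 ± 0.06 (0.00493). The Ampd3 genotype call was lost whichever mouse was left out (edgeR adjusted p 0.0522 to 0.241). Of the 17 named pathway genes called for the genotype, 2 kept the call with scaling to cardiomyocyte markers, Fnip2 and Pfkfb2, and of 19 called for the drug in CD mice 3 did, Fnip2, Gys1 and Nt5c1a. Without WT VEH mouse C, 2 of the 17 kept the genotype call, Acacb and Sik3.

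**Figure D5:**
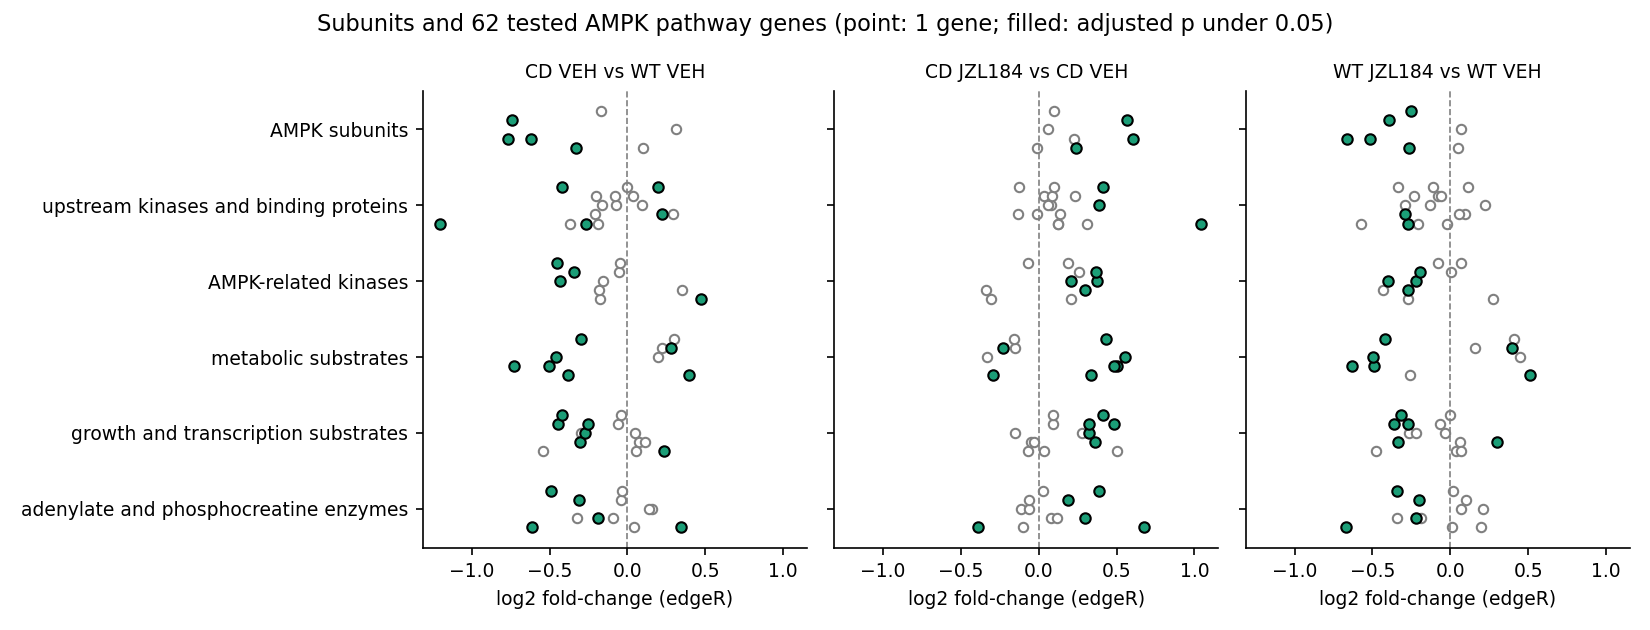
Log2 fold-change (horizontal axis) of the 7 subunits and of the 62 tested pathway genes by list (vertical axis) in 3 comparisons; each point is a gene, filled where the edgeR adjusted p was under 0.05. Filled points lie mostly below 0 for CD VEH against WT VEH (20 of 27 pathway genes) and mostly above 0 for CD JZL184 against CD VEH (21 of 24). Both comparisons use the same CD VEH mice, so they are not independent.

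The genes whose levels over the 11 mice were most like each member are a description of these libraries, which share group means and scaling. Prkaa2 was most like Svil (Pearson r = 0.993 of log2 CPM over 11 mice), which encodes the actin-binding protein supervillin, and March6 (0.993), a ubiquitin ligase of the endoplasmic reticulum. After removal of the group means, r was 0.967 and 0.942, and over the 14 genes named here it ranged from 0.709 (Prkag2 with Zfp507) to 0.967. These genes were chosen for the highest r over the same mice. Prkab2 was most like Adcy5 (0.974), the main cardiac adenylyl cyclase, and Ppip5k1 (0.972). Prkab1 was most like Sugp1 (0.937) and Tm9sf1 (0.929), Prkag1 like Zmym5 (0.965) and Ktn1 (0.947), and Prkag2 like Zfp507 (0.931) and Zfp799 (0.929). Prkaa1, which moved least, had the weakest best match, Rpap2 (0.872), followed by Casp6 (0.835), and Prkag3 was most like Gm28035 (0.964) and Haus8 (0.937). Among the members themselves, r over the 11 mice was 0.784 for Prkaa2 with Prkab2, -0.215 for Prkaa1 with Prkaa2 and -0.288 for Prkab1 with Prkab2, and within groups it was 0.358, -0.143 and -0.074.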

How the data were processed

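The labels give the tissue as ventricle. Per the study's methods, heart RNA was extracted with TRIZOL and sequenced on a HiSeq3000 instrument, 1 library per mouse. The authors deposited 1 table of estimated counts. They quantified transcripts of Ensembl release 85 (GRCm38, mm10 in the labels) with Salmon 0.7.2 and summed them by gene with tximport, with no normalization between libraries. Column names give the group and a letter but no numbered sample, so mice are named by letter and numbers were not used to pair them. The labels name no batch. Estimated counts were rounded (6 of the 7 subunit genes held whole values within 0.01 in every mouse) and fitted by the quasi-likelihood method of edgeR 4.0.16 (R 4.3.3) with TMM factors, with all 4 groups in 1 model. A gene was tested if its log2 CPM averaged 1 or more over the 11 mice (11319 of 22608), and p-values were adjusted by Benjamini-Hochberg over all of them at 0.05. The study's methods used DESeq2, which was run as an alternative (version 1.42.0). CPM values use TMM library sizes, and log2 CPM a prior count of 2. GENCODE release 21 gave positions and transcript lengths, and matched 22238 genes. The steps were also run on simulated counts, with genes changed in CD VEH only and far fewer of them than were called in the data. Of 50 genes changed at each size, 92%, 84%, 86% and 98% were recovered at log2 fold-changes of -1, -0.6, 0.6 and 1. The replicates are separate mice, and a chi-square of 22.6 to 125 per gene between mice of a group exceeded counting noise.

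The members and the gene lists were chosen with earlier results of these data known, so counts over a list are descriptions and no test over a list was run. Named genes were the 7 subunits, the 4 tested genes of each list with the smallest p over the comparisons of CD VEH with WT VEH and of CD JZL184 with CD VEH, and the 2 genes most like each subunit by Pearson r. Alternatives were DESeq2, RLE and upper quartile factors, no mitochondrial genes, dropping the filter on low counts, a minimum of 10 counts in each library, a model of only the compared groups, an offset for transcript length (loess, span 0.5), an adjusted p under 0.01, a limit of 0.5 on the size of the log2 fold-change, unrounded counts for the ratios and leaving out each mouse. Scaling to cardiomyocyte markers and the comparison averaged over treatments were added after seeing the data.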

Additional observations from a re-analysis of the deposited data

Results flagged for a closer look

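The following subunits and named pathway genes had a JZL184 effect that differed between CD and WT mice by the edgeR test of the difference itself, given as the effect in CD mice minus that in WT mice on the log2 scale. With 51.5% of all tested genes past that test, a pass is common in these data. The subunits were Prkaa2 (1.27), Prkab2 (0.96), Prkag3 (0.74), Prkag2 (0.50) and Prkag1 (0.35). The effect in CD mice itself did not pass for Prkag3 (0.23) and Prkag1 (0.10). Scaling to cardiomyocyte markers left Prkaa2 and Prkab2 called and gave Prkag1 -0.17 and Prkag2 -0.04. Over all 5 pathway lists, 36 of 62 tested genes passed, 29 with a positive and 7 with a negative difference (58.1%). Of the 19 named pathway genes given next, all positive, 5 kept the call with that scaling, Acacb, Fnip2, Gys1, Nt5c1a and Pfkfb2, and 3 changed sign. The upstream kinases and binding proteins were Fnip2 (1.61), Fnip1 (0.75) and Sesn3 (0.68). The AMPK-related kinases were Sik2 (0.77), Mark2 (0.57), Sik3 (0.56) and Mark3 (0.42). Of the metabolic substrates 8 of 10 passed, 3 of them with a negative difference, and those named were Pfkfb2 (1.11), Gys1 (1.05), Acacb (0.99) and Tbc1d4 (0.85). Growth and transcription substrates were Foxo3 (0.84), Hdac4 (0.73), Rptor (0.70) and Ulk1 (0.59). The adenylate enzymes were Nt5c1a (1.34), Ak4 (0.73), Ampd3 (0.51) and Ak3 (0.39).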

How the results depend on the processing

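The lowest subunit value was 1.94 CPM, against at most 0.0435 CPM for 3 counts, and WT VEH held 2 mice. Of 296 alternative values for the 19 calls of single subunits, stricter thresholds not counted, 250 kept the call, 41 lost it and 5 changed sign, all 5 with scaling to cardiomyocyte markers. Prkaa2 and Prkab2 kept the calls of CD JZL184 against CD VEH and of the drug-effect difference in every alternative run. For Prkab2 the range of adjusted p was 5.69e-08 to 0.0356 and 1.05e-10 to 0.0396. No paired analysis was possible because the columns of the table carry letters and not the replicate numbers of the labels. Upper quartile factors moved the share of higher genes among all calls from 49.2% to 61.5% for CD VEH against WT VEH and from 52.5% to 64.0% for WT JZL184 against WT VEH.

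The number of subunits called ranged, over fits that each leave out 1 mouse, from 1 to 4 for CD VEH against WT VEH, from 1 to 4 for WT JZL184 against WT VEH, from 1 to 3 for CD JZL184 against WT JZL184, from 3 to 5 for the drug-effect difference and from 0 to 2 for CD against WT averaged over treatments. In the same fits the share of all tested genes called ranged from 3.4% to 31.2%, 4.93% to 39.6%, 26.1% to 43%, 40.4% to 56.5% and 0.353% to 2.29%. Pathway genes called ranged from 2 to 27 for CD VEH against WT VEH and from 1 to 29 for WT JZL184 against WT VEH. For WT JZL184 against WT VEH, subunits called were 3 with upper quartile factors, 2 with only the compared groups and 1 with marker scaling. The shares of all tested genes were 28.7%, 14.6% and 35.9%. For CD JZL184 against WT JZL184, subunits called were 4 with DESeq2 (41.4% of all tested genes) and 4 with the length offset (37.3%). They were 1 each with upper quartile factors (38.1%), only the compared groups (30.2%) and marker scaling (54.2%). For the drug-effect difference they were 3 with marker scaling (57.5% of all tested genes). For the average over treatments they were 3 with DESeq2 (3.9%) and 1 without the filter (1.21%). Stricter thresholds call fewer genes by construction. At an adjusted p under 0.01, subunits called were 1 for WT JZL184 against WT VEH, 1 for CD JZL184 against WT JZL184 and 3 for the drug-effect difference. The shares of all tested genes were 9.74%, 19.7% and 34.3%. With a log2 fold-change limit of 0.5 in either direction, subunits called were 2 for the first (9.07% of all tested genes) and 1 for the second (9.81%). Of 62 pathway genes, those called were 7, 14, 5 and 13 at an adjusted p under 0.01 and 4, 4, 3 and 5 at the fold limit, for CD VEH against WT VEH, CD JZL184 against CD VEH, WT JZL184 against WT VEH and CD JZL184 against WT JZL184. In that order, the shares of all tested genes were 10.2%, 13.7%, 9.74% and 19.7% at an adjusted p under 0.01. At the fold limit they were 8.27%, 6.17%, 9.07% and 9.81%. With marker scaling, the pathway genes called were 4 and 11 of 62 in the first 2 of these comparisons. There, 13% and 26.1% of all tested genes passed. With only the compared groups, 10 of 62 were called in WT JZL184 against WT VEH, where 14.6% of all tested genes passed. The cause was not tested.

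With marker scaling, the following values changed sign. In CD VEH against WT VEH they were Prkag1 (0.028), Sesn3 (0.029), Mark2 (0.012), Mark3 (0.040) and Ampd3 (0.006). For CD JZL184 against CD VEH the genes were Prkab1 (-0.16), Prkag1 (-0.12), Mark3 (-0.017) and Ak3 (-0.031). In WT JZL184 against WT VEH they were Prkag1 (0.048) and Prkag2 (0.056). In CD JZL184 against WT JZL184 they were Prkaa1 (-0.30), Prkab1 (-0.052), Prkab2 (-0.12), Prkag1 (-0.14) and Prkag2 (-0.17). In the drug-effect difference they were Prkag1 (-0.17), Prkag2 (-0.036), Mark3 (-0.10), Ak3 (-0.14) and Ampd3 (-0.021). The median of all tested genes shifted by -0.33 in CD JZL184 against WT JZL184 and by -0.53 in the drug-effect difference under this scaling, and Prkaa1 then passed in the latter (-0.59, edgeR adjusted p = 0.0132).

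The other sign changes were of uncalled values near 0. Leaving out 1 mouse each, in CD JZL184 against CD VEH Prkaa1 ranged from -0.055 to 0.026, above 0 without CD JZL184 mouse E, and Prkab1 from -0.005 to 0.133, below 0 without CD VEH mouse E. In WT JZL184 against WT VEH Prkab1 ranged from -0.012 to 0.159, below 0 without WT JZL184 mouse B. In CD JZL184 against WT JZL184 Prkaa1 ranged from -0.003 to 0.078, below 0 without CD JZL184 mouse A, and gave -0.014 with the length offset. Prkag3 there ranged from -0.163 to 0.062, above 0 without WT JZL184 mouse A (0.045) or D (0.062) or CD JZL184 mouse A (0.001). In CD JZL184 against WT VEH Prkaa2 ranged from -0.096 to 0.069, above 0 without WT VEH mouse C (0.069) or CD JZL184 mouse C (0.019). The drug-effect difference of Prkab1 ranged from -0.097 to 0.074, above 0 without WT VEH mouse C (0.023), WT JZL184 mouse B (0.074) or D (0.003), mouse A of CD VEH (0.062) or of CD JZL184 (0.054), and gave 0.006 with at least 10 counts per library and 0.044 with the length offset.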
